A study of Mus musculus with 4 samples.

Results

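The genes described here encode the hormones and granins of the pancreatic islet, and they were chosen by name: *Ins1*, *Ins2*, *Gcg*, *Sst*, *Ppy*, *Iapp*, *Pyy*, *Chga* and *Chgb*. All 9 were among the 32285 genes listed, of which 20387 had a UMI over tissue in at least 1 section, and each of the 9 had UMIs in every section. They were measured by spatial transcriptomics of formalin-fixed, paraffin-embedded pancreas, in which pairs of gene-specific probes bind RNA in the section, are caught on an array of barcoded spots, and are counted by a molecular tag (UMI) so that copies of 1 molecule count once. The 4 sections came from C57Bl/6 mice with *Pdx1-Cre*, a transgene that recombines floxed alleles in the pancreatic epithelium and its endocrine cells. Of these, 2 were labelled as wild type for *Ehmt2*, a histone H3 lysine 9 methyltransferase (sections +/+ 1 and +/+ 2), and 2 as floxed knockout (sections fl/fl 1 and fl/fl 2). All mice were fasted for 12 h and given 8 hourly injections of caerulein at 50 μg/kg, which overstimulates acinar cells as cholecystokinin does and brings on pancreatitis, and were euthanized 18 h after the first dose. Per the methods the mice were 4 weeks old. No section came from a saline-treated mouse, so all values are from pancreatitis tissue. Each spot can hold several cells and parts of others, and nothing states which region of the gland was cut.

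Over tissue, the sections held 43803829, 8697030, 7000825 and 8501140 UMIs in the order +/+ 1, +/+ 2, fl/fl 1 and fl/fl 2, an order kept below. Median depth was 6285 UMIs per tissue spot in +/+ 1 and 759, 914 and 932 in the others. The targeted gene, *Ehmt2*, had 19.7, 3.79, 10.4 and 11.9 CPM (UMIs scaled to a section total of 1000000 over tissue), so its level did not separate the genotypes, and section names below follow the labels only. Whether its probes lie in the deleted part is not given in the sources used here. The Y-linked genes *Ddx3y*, *Uty*, *Kdm5d* and *Eif2s3y* had 0 or 1 UMI each in both sections labelled +/+ and 36 to 150 UMIs in those labelled fl/fl, so sex and genotype cannot be told apart. *Xist* had 0 UMIs in all sections, also in those with 0 or 1 UMI of each Y-linked gene, and whether it has a probe is not given. Each of the 2 slides held 1 section of each genotype. Both sections labelled +/+ lay on capture area B1 and both labelled fl/fl on A1, so capture area and genotype cannot be told apart. Digestive enzyme genes took 62.6% and 51.4% of tissue UMIs in the sections labelled +/+ and 21.5% and 20.6% in those labelled fl/fl. The 1107 olfactory receptor genes counted, which the pancreas is not known to use, had a median of 0.251, 5.52, 8.43 and 12.9 CPM, which served as the background level of a probe in each section. Against that median, *Ehmt2* stood at 78.6, 0.688 and 1.24 times in +/+ 1, +/+ 2 and fl/fl 1. In fl/fl 2 its 11.9 CPM lay below the median of 12.9, so *Ehmt2* was clear of background in +/+ 1 only. The Y-linked genes stood at 0.610 to 1.78 times that median in fl/fl 1, so their counts there were within reach of background.

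Islets are clusters of endocrine cells within the enzyme-secreting acinar tissue. In the mouse, beta cells make insulin from the *Ins1* and *Ins2* genes together with islet amyloid polypeptide (*Iapp*), alpha cells make glucagon (*Gcg*), delta cells make somatostatin (*Sst*), and a minor population makes pancreatic polypeptide (*Ppy*) or peptide YY (*Pyy*). Insulin lowers blood glucose, glucagon raises it, and somatostatin restrains the release of both. The hormones are stored in dense-core granules, whose assembly involves the granins chromogranin A (*Chga*) and chromogranin B (*Chgb*), which are shared by endocrine cell types.

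In GRCm38, the build that the submitters name as mm10, the genes lie on 7 chromosomes. By the GENCODE M21 annotation they are *Ins1* (chr19:52264297-52265476, plus strand), *Gcg* (chr2:62474530-62483650, minus), *Sst* (chr16:23889573-23890958, minus), *Iapp* (chr6:142298423-142303961, plus), *Chga* (chr12:102554969-102565028, plus) and *Chgb* (chr2:132781278-132795079, plus). *Ppy* (chr11:102099930-102101319, minus) and *Pyy* (chr11:102106676-102107832, minus) are neighbours of 1 peptide family, and *Ins2* lies on chromosome 7. *Ins1* and *Ins2* are close paralogs, and how far their probes, or those of *Ppy* and *Pyy*, separate the copies was not tested.

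The upstream windows of *Ins1*, *Iapp* and *Gcg* are shown because these 3 genes carry the main contrast below: relative to *Ins2*, *Ins1* was higher and *Iapp* and *Gcg* were lower in both sections labelled fl/fl. The sequences are the 250 bases before each RefSeq transcription start in GRCm38.p6, 5′ to 3′ on the gene's strand. Capitals mark TAAT, the core that many homeodomain factors bind, on either strand.
*Ins1* (chr19:52264047-52264296, plus strand): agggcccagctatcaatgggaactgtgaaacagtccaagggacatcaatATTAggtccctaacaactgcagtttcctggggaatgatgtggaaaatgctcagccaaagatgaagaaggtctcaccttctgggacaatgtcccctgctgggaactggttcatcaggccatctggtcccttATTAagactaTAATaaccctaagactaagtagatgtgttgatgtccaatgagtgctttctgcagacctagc
*Iapp* (chr6:142298175-142298424, plus strand): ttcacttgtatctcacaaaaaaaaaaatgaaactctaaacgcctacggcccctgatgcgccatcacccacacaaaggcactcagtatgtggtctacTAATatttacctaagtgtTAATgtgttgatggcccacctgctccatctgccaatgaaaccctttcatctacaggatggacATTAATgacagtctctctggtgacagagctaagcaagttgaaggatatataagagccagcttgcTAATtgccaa
*Gcg* (chr2:62483654-62483903, minus strand): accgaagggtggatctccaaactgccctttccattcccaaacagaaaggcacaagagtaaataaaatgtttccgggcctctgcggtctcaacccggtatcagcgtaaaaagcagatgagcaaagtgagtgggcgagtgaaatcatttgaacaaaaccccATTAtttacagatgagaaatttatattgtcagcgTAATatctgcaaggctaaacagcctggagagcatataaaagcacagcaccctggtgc
The *Ins1* window held 3 matches, that of *Iapp* 5 and that of *Gcg* 2. At least 1 match occurred in 54.9% of all 32851 promoter windows of this length, and at least 3 in 17.3%. Of the 8 members with a window in the table, 5 had a match, the others being *Sst* and *Chga* with 1 each. The cyclic AMP response element TGACGTCA, which is its own reverse complement, stood once in the windows of *Sst* and of *Chgb*, against 1.55% of all windows. It overlapped no TAAT. For *Ins2* no window was given.

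The insulin genes were the members with most UMIs, and fl/fl 1 stood apart from the other sections for both. *Ins2* had 538, 423, 3975 and 451 CPM over tissue. Section fl/fl 1 was far above the rest, and fl/fl 2 lay between the sections labelled +/+. *Ins1* had 185, 131, 1664 and 199 CPM, again highest in fl/fl 1. The means of *Ins1* were 158 ± 37.7 (SD, n = 2) in the sections labelled +/+ and 931 ± 1036 in those labelled fl/fl, so the spread within the latter exceeded the difference. *Iapp*, which is released with insulin, had 156, 86.5, 278 and 66.8 CPM. It was highest in fl/fl 1 and lowest in fl/fl 2, and the genotypes overlapped.

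The hormones of the other islet cells were less abundant in UMIs, although levels of different genes are not comparable where probes differ. *Gcg* had 91.5, 52.4, 112 and 40.0 CPM, with the highest and the lowest value both in sections labelled fl/fl. *Sst* had 25.3, 46.5, 35.9 and 23.8 CPM, which also overlapped. Against the median olfactory receptor gene it stood at 101, 8.42 and 4.25 times in +/+ 1, +/+ 2 and fl/fl 1. In fl/fl 2 its 23.8 CPM lay only little above the median of 12.9. *Ppy* had 1.46, 8.62, 7.71 and 10.8 CPM. In +/+ 1 this was 5.82 times the median olfactory receptor gene, but in fl/fl 1 and fl/fl 2 it was 0.915 and 0.836 times that median, so *Ppy* did not stand above background there. *Pyy* had 9.41, 14.7, 22.4 and 23.3 CPM, or 37.5, 2.67, 2.66 and 1.80 times the median olfactory receptor gene. *Pyy* was therefore clear of background in +/+ 1 and only little above it elsewhere.

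Of the granins, *Chga* had 139, 116, 360 and 117 CPM in the same order of sections as *Ins2*. *Chgb* had 7.92, 9.08, 45.3 and 20.8 CPM, higher in both sections labelled fl/fl. Against the olfactory receptor median *Chgb* stood at 31.5, 1.65, 5.37 and 1.61 times, so its value in +/+ 2 and fl/fl 2 was within reach of background. Beside *Chgb*, *Ins1* and *Pyy* were higher in CPM in both sections labelled fl/fl, 3 of 9 members. Over all genes, 90.8% were, beside the smaller share of digestive enzymes given above. No member was lower in CPM in both, against 0.789% of all genes. In counts summed over a section, fewer cells of a type and less RNA per cell cannot be told apart.

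**Figure D1:**
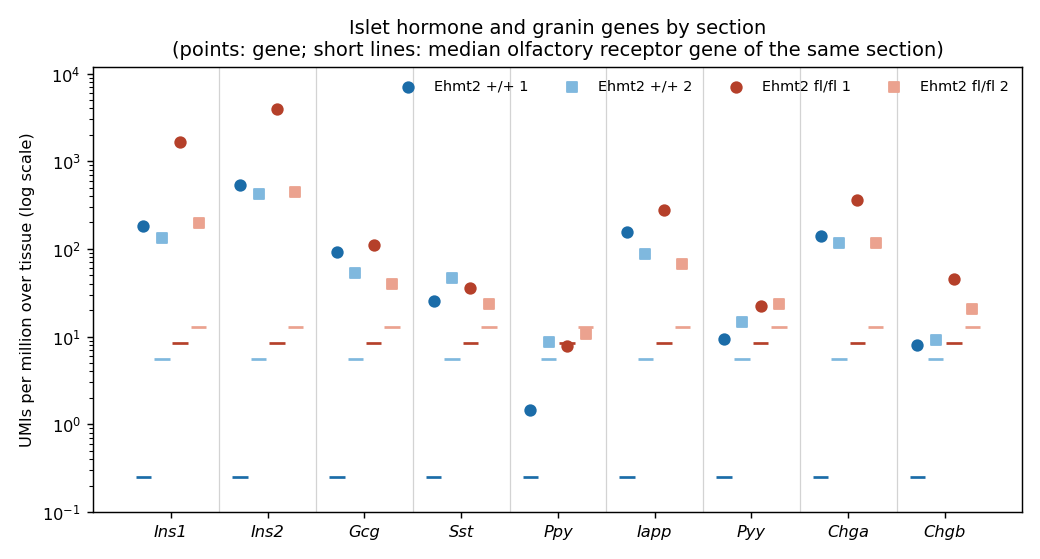
CPM over tissue (log axis) of the 9 members in each of the 4 sections, coloured by section, with a short line at the median olfactory receptor gene of the same section. *Ins1* and *Ins2* stand highest in fl/fl 1 at 1664 and 3975, and *Ppy* lies at or below the line in both sections labelled fl/fl.

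No member passed the threshold in the fit of genotype across all genes. The edgeR quasi-likelihood test called 19 of 20066 genes at an adjusted p under 0.05, 0.0947% of those tested, and 0 of the 9 members. At an unadjusted p under 0.05 there were 2 of the 9 members, *Gcg* and *Sst*, and 1005 of all 20066 genes. *Gcg* had a log2 fold change of -2.15 (SE 1.07, edgeR adjusted p = 0.872) and *Sst* one of -2.07 (SE 0.918, edgeR adjusted p = 0.872). These values are relative to trimmed-mean scaling. With plain library sizes the median of all genes moved from 0.247 to 1.64 and *Gcg* to 0.0717, so no direction is given for *Gcg*. *Sst* was negative under both scalings, at -0.265 with plain library sizes. Its CPM, however, overlapped between the genotypes. Within slides 1 and 2 their log2 differences were 0.503 and -0.967, so no direction is given for *Sst* either. *Ins1* stood at 0.453 and *Ins2* at 0.135, with standard errors of 1.22 and 1.39. *Iapp* stood at -1.71 (SE 1.13) and *Chga* at -1.18 (SE 1.12), and both turned positive with plain library sizes, at 0.507 and 0.900. *Pyy*, *Ppy* and *Chgb* stood at -0.988, -0.511 and -0.0285. The targeted gene, *Ehmt2*, stood at -2.65 (SE 0.789, edgeR adjusted p = 0.226), also relative to trimmed-mean scaling. Its CPM given above overlapped between the genotypes and were clear of background in +/+ 1 only, so no direction is given for *Ehmt2*. DESeq2 called *Gcg* alone of the members (adjusted p = 0.0494), and 401 of all 20066 genes. It gave *Sst*, *Ppy*, *Pyy* and *Chgb* no adjusted p. Single sections decided these calls: without +/+ 2 edgeR called 6 members, all lower (*Gcg*, *Sst*, *Iapp*, *Pyy*, *Chga* and *Chgb*), and 16701 genes, without +/+ 1 it called 1 member, *Sst*, lower at -1.51, and 356 genes, and without fl/fl 1 or fl/fl 2 it called 0 members. Over the settings run, the adjusted p of *Gcg* ranged from 2.43e-10 to 0.9999.

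Members were concentrated in few spots. For *Ins2*, 50% of tissue UMIs lay in 38, 116, 35 and 45 spots, of 6183, 10285, 7587 and 8443 tissue spots. For *Ins1* this took 36, 102, 50 and 39 spots, and for *Gcg* 52, 74, 58 and 93. Both insulin genes were thus spread over more spots in +/+ 2 than in the other sections. Median depth per tissue spot was 759 UMIs in +/+ 2 and 914 and 932 in fl/fl 1 and fl/fl 2, and its part was not tested. The highest single-spot counts of *Ins2* were 679, 46, 918 and 137 UMIs. Outside tissue spots lay 0.791%, 0.862%, 0.440% and 0.622% of all *Ins2* UMIs.

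Shares of spots with a UMI depend on depth as well as on level, so they were also computed at 1 depth. Among the 6144, 7871, 6483 and 6462 spots with at least 500 UMIs, *Ins2* was found in 26.1% (95% Clopper-Pearson interval 25.0 to 27.2), 11.7% (11.0 to 12.5), 27.0% (25.9 to 28.1) and 11.8% (11.0 to 12.6), with intervals that cover counting error only. With each spot thinned to 500 UMIs, *Ins2* would be found in 7.61%, 8.51%, 19.2% and 7.36%, so at 1 depth only fl/fl 1 stood apart. *Gcg* was found in 11.4%, 2.93%, 5.54% and 3.62% of spots, and at 500 UMIs in 3.08%, 1.94%, 3.43% and 1.89%. The median olfactory receptor gene was found in 0.179%, 0.495%, 0.833% and 1.53% of spots. *Ppy*, in 0.846%, 0.724%, 0.802% and 1.32% of spots, was at or below that level in both sections labelled fl/fl. For *Sst*, the shares of 5.88% and 2.85% in the sections labelled +/+ were both above the 2.71% and 2.58% of the others, where 0.745% of all genes were lower in both. After thinning the *Sst* shares, 1.24%, 1.87%, 1.51% and 1.21%, overlapped. No member was then lower in both sections labelled fl/fl, against 0.834% of all genes, and *Pyy*, *Chga* and *Chgb* were higher in both, against 90.2%. Exact permutation tests gave p = 0.333 or more for each member, and with 2 sections against 2 the smallest p that the design allows is 0.333.

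Spots in which the 7 hormone genes took at least 1% of UMIs are called hormone-rich. They numbered 143, 142, 391 and 105, or 2.33%, 1.80%, 6.03% and 1.62% of spots with at least 500 UMIs. Section fl/fl 1 was again alone in its excess. The difference of means, 1.76 percentage points, had an exact permutation p of 1, and without fl/fl 1 it was -0.441. At the stricter limit of 5% the counts were 50, 18, 142 and 27. Median depth in hormone-rich spots was 5227, 683, 1054 and 917 UMIs, so that a spot needed more hormone UMIs to qualify in +/+ 1 than elsewhere. Of the hormone-rich spots with at least 10 hormone UMIs, 139 of 141, 101 of 113, 324 of 364 and 91 of 99 had *Ins2* as the gene with most UMIs. *Gcg* led in 2, 1, 0 and 0. The highest hormone share of any spot was 22.0%, 11.9%, 44.0% and 20.4%.

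Within hormone-rich spots, which were chosen by the same hormone genes, the makeup of the hormone UMIs separated the genotypes. The part of that choice in the separation was not tested. *Ins1* and *Ins2* together gave 72.7% and 76.3% of hormone UMIs in the sections labelled +/+ and 93.5% and 89.4% in those labelled fl/fl, means of 74.5% ± 2.55 and 91.5% ± 2.86 (SD, n = 2). *Iapp* gave 16.0% and 12.9% against 4.55% and 6.92%. *Gcg* gave 8.39% and 5.55% against 1.49% and 2.70%. *Sst* gave 2.11% and 4.34% against 0.375% and 0.785%. For each of these the values of the genotypes did not overlap, and the differences of 17.0, -8.73, -4.88 and -2.64 percentage points exceeded the SD of either genotype. The exact permutation p was 0.333 for each, the smallest that the design allows, so none could reach significance. The shares are parts of 1 total, so the differences are not independent of each other. With any 1 section left out, the difference for *Ins1* and *Ins2* together stayed between 15.0 and 19.0 percentage points. That for *Sst* moved more, to -1.53 without +/+ 2 and -3.76 without +/+ 1. These are shares of UMIs, which depend on each gene's probes, and only their change between sections is of use. The separation stood in spots with at least 5% hormone UMIs too, where *Ins1* and *Ins2* gave 75.1%, 77.5%, 93.5% and 90.0%. Over all tissue spots their share was 71.8%, 72.7%, 92.5% and 79.8%. *Iapp* and *Gcg* did not overlap there either, but *Sst* did, at 2.51%, 6.09%, 0.588% and 2.92%, with an exact permutation p of 0.667. The share of *Ins2* alone overlapped over tissue as well, at 53.49%, 55.45%, 65.23% and 55.36%.

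**Figure D2:**
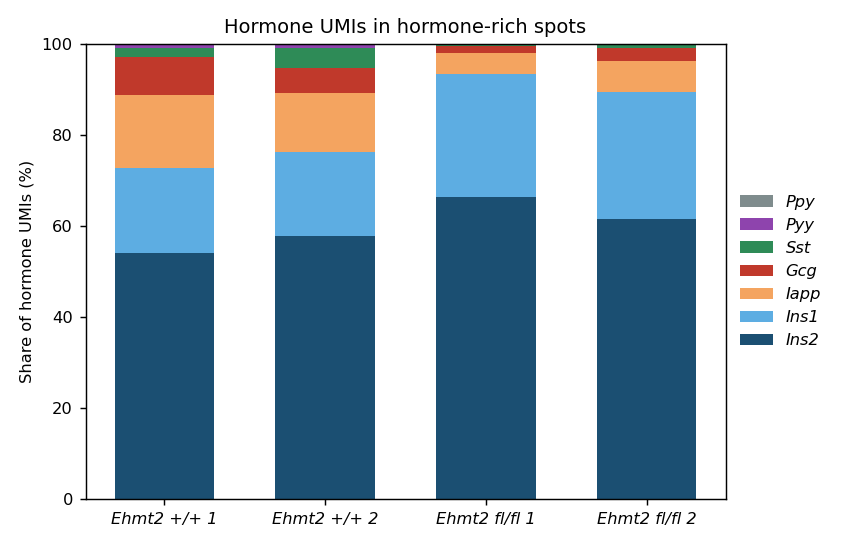
Share of hormone UMIs (%) from each of the 7 hormone genes in the hormone-rich spots of each section, as stacked bars from 0 to 100. *Ins1* and *Ins2* together take 72.7% and 76.3% in the sections labelled +/+ and 93.5% and 89.4% in those labelled fl/fl, and the layers of *Iapp*, *Gcg* and *Sst* are thinner there.

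The same contrast was read against *Ins2* alone, a ratio within a section that does not depend on library size. Over tissue, *Ins1* had 34.3, 31.1, 41.9 and 44.1 UMIs per 100 of *Ins2*. Both sections labelled fl/fl were higher, by 0.397 on the log2 scale on average. It was also higher within each slide, by 0.286 and 0.507. Of all genes, 0.199% were higher against *Ins2* in both sections labelled fl/fl, *Ins2* itself being at 3975 CPM in fl/fl 1. Of the 8 members compared with *Ins2*, *Ins1* was the only one to be higher in both.

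*Iapp*, although a product of the same cells as *Ins2*, was lower relative to *Ins2* instead. It had 28.9, 20.4, 6.99 and 14.8 UMIs per 100 of *Ins2* over tissue, and 29.6, 22.3, 6.86 and 11.3 in hormone-rich spots. The mean log2 difference over tissue was -1.26, and it was -2.05 on slide 1 and -0.464 on slide 2. *Gcg* had 17.0, 12.4, 2.81 and 8.87 UMIs per 100 of *Ins2* over tissue, a mean log2 difference of -1.54, and -2.60 and -0.482 within the slides. In CPM, the log2 differences within slides 1 and 2 were 0.835 and -0.372 for *Iapp*, and 0.286 and -0.391 for *Gcg*. For *Ins2* they were 2.88 and 0.0916. Without fl/fl 1, where both ratios were lowest, the differences in ratio were -0.714 for *Iapp* and -0.711 for *Gcg*. *Iapp* and *Gcg* were the 2 of 8 members lower relative to *Ins2* in both sections labelled fl/fl over tissue, against 1.21% of all genes. Exact permutation p was 0.333 for *Ins1*, *Iapp* and *Gcg*, with an adjusted p of 0.889 over the 8 members.

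In hormone-rich spots 6 of 8 members were lower against *Ins2* in both sections labelled fl/fl, where 11.8% of all genes were. Besides *Iapp* and *Gcg* these were *Sst*, *Ppy*, *Pyy* and *Chga*, which all overlapped over tissue. Over tissue *Sst* had 4.70, 11.0, 0.902 and 5.27 UMIs per 100 of *Ins2*, and *Chga* 25.78, 27.49, 9.05 and 25.85. In fl/fl 2, *Sst* lay only little above background over tissue, and the part of background in its overlap was not tested. Hormone-rich spots were chosen by UMIs of the hormone genes, *Ins2* among them, in which most other genes had no part. The shares of all genes in such spots are thus not a like comparison. The part of this choice in the separation was not tested. In hormone-rich spots *Sst* had 3.89, 7.50, 0.565 and 1.28 UMIs per 100 of *Ins2*, from 707, 126, 143 and 32 UMIs. *Pyy* had 1.27, 1.31, 0.134 and 0.160, but rested on 34 and 4 UMIs in the sections labelled fl/fl. *Ppy* rested on 7 and 3 UMIs there and is not read further. *Chga* had 25.3, 24.6, 8.20 and 19.6 UMIs per 100 of *Ins2*, lower in fl/fl 1 and only slightly so in fl/fl 2. *Ins1* was again higher in both, at 34.2, 31.8, 40.9 and 45.5, where 2.30% of all genes were. *Chgb* overlapped, at 1.35, 0.774, 0.763 and 1.80. The adjusted exact permutation p of the members that did not overlap was 0.381.

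**Figure D3:**
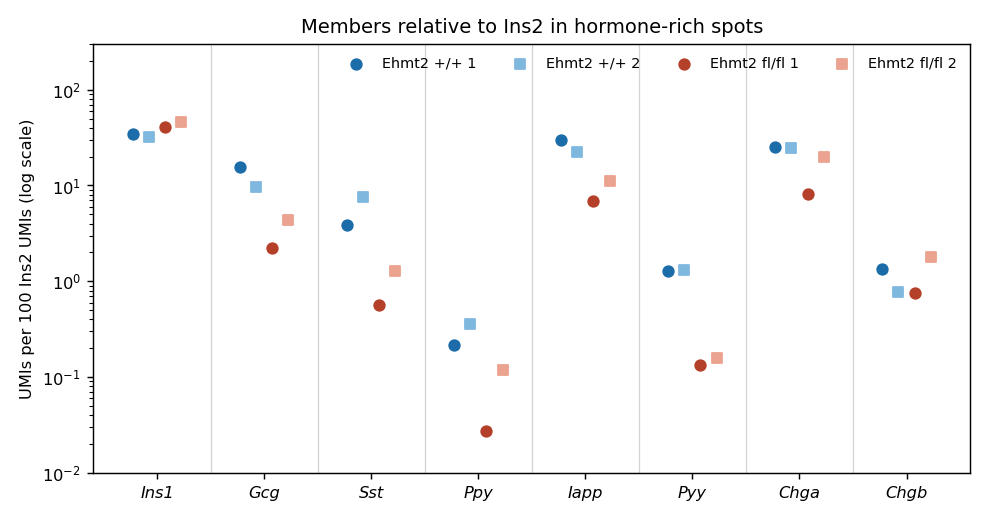
UMIs of each other member per 100 *Ins2* UMIs (log axis) in the hormone-rich spots of the 4 sections, coloured by section. Points of the sections labelled fl/fl lie below both others for *Gcg*, *Sst*, *Ppy*, *Iapp*, *Pyy* and *Chga* and above them for *Ins1*, and *Chgb* overlaps.

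Members shared spots. For each pair, the number of spots with both was divided by the number expected from their separate shares, and 29 of the 36 pairs were above 1 in every section. The other 7 pairs all had *Ppy* or *Pyy* in them, and fell to 1 or below in fl/fl 1 or fl/fl 2. *Ins1* and *Ins2* were found together in 690, 293, 819 and 258 spots, or 2.85, 5.43, 2.49 and 4.99 times the expected number. Of the spots with *Ins1*, 74.2%, 63.7%, 67.3% and 58.6% also held *Ins2*. *Iapp* and *Chga* overlapped at 4.42, 8.75, 5.52 and 5.80 times the expected number, and *Chga* and *Chgb* 6.56, 5.14, 5.87 and 5.97 times. Alpha and delta cell hormones met as well: *Gcg* and *Sst* shared 234, 47, 60 and 20 spots, 5.67, 7.15, 6.16 and 3.31 times the expected number. Against single olfactory receptor genes the same ratio was 0.901 to 1.70 over members and sections.

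The 2 peptide YY family genes differed most between sections in their overlaps. *Ppy* and *Pyy* were found together in 31 spots of +/+ 1, 14.5 times the expected number, but in 1, 3 and 0 spots of the others. *Pyy* and *Gcg* overlapped at 5.83, 5.56, 3.94 and 0.780 times the expected number. In spots thinned to 500 UMIs, the *Pyy* and *Gcg* ratio was 18.2, 9.08, 4.22 and 0.974. In fl/fl 2 the UMIs of *Pyy* thus fell no more often in *Gcg* spots than its separate share gives, and *Pyy* stood there at 1.80 times the median olfactory receptor gene. Of the 36 pairs, 35 had an overlap in every section and could be tested between genotypes, with exact permutation p from 0.333 to 1 and an adjusted p of 0.686 or more.

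**Figure D4:**
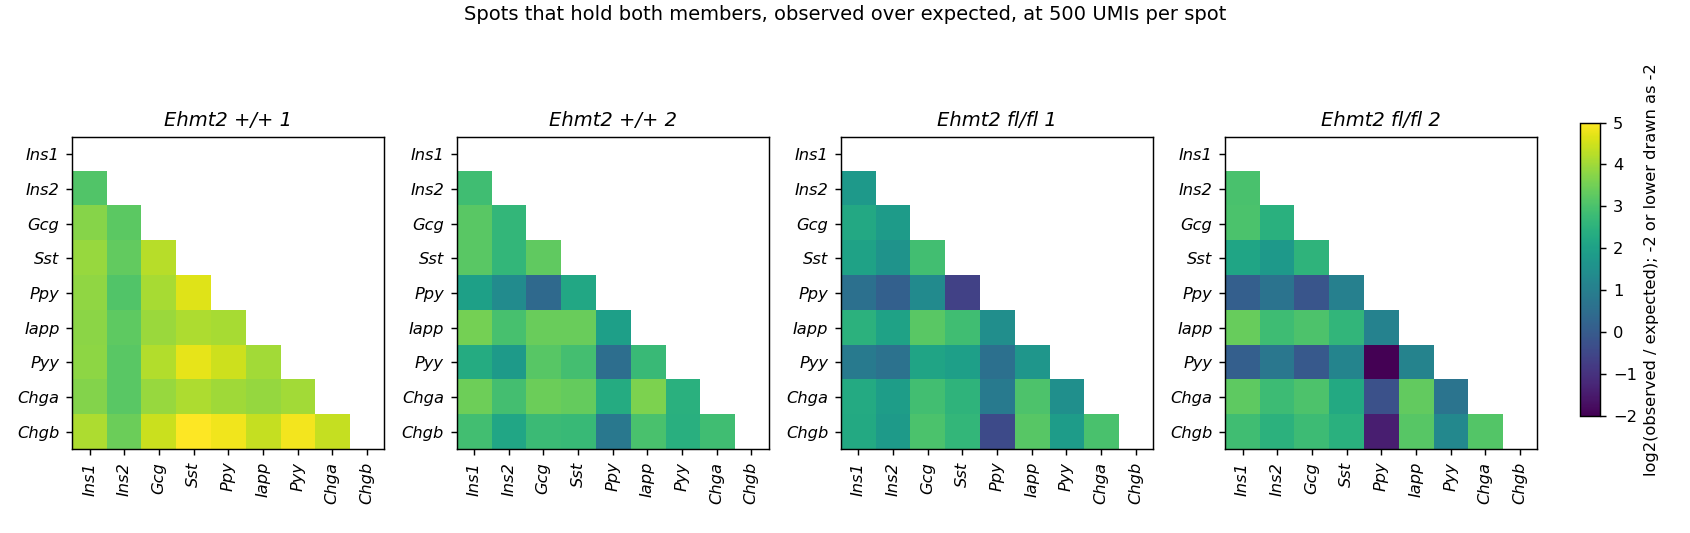
Log2 of observed over expected number of spots with both members of each pair, expected at 500 UMIs per spot, with 1 panel per section and values of -2 or lower drawn as -2. Pairs without *Ppy* and *Pyy* are above 0 in every panel, while 6 pairs with *Ppy* or *Pyy* fall below 0 in a section labelled fl/fl.

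Each member was also compared between spots rich in the other hormones, with its own UMIs left out of the limit, and the rest. *Ins1* was 183, 84.2, 112 and 181 times higher there. *Gcg* was 114, 62.2, 39.5 and 43.3 times higher, and *Sst* 99.7, 45.6, 19.9 and 15.3 times. *Iapp* was 202, 111, 126 and 83.8 times higher. Each was thus concentrated in the spots of the other hormones. *Chga* was 173, 80.2, 72.7 and 86.4 times higher and *Chgb* 135, 17.3, 24.3 and 29.7 times. *Pyy* was 70.7, 18.7, 4.28 and 1.73 times higher and *Ppy* 90.2, 6.68, 2.20 and 1.88 times, the smallest ratios, in the sections where both were near background. The olfactory receptor genes, summed, were 1.78, 1.40, 0.765 and 1.01 times as high in hormone-rich as in other spots.

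The enzymes and chaperones that process prohormones were found in the same spots, with none of 5 tested genes called between genotypes. *Pcsk1n*, an inhibitor of prohormone convertase 1, was the clearest, with 33.6, 52.2, 135 and 42.9 CPM over tissue. It was 140, 69.0, 58.7 and 72.3 times higher in hormone-rich than in other spots. *Cpe*, the carboxypeptidase that trims the cleaved prohormones, was 5.24, 3.84, 3.25 and 2.17 times higher, and *Pam*, which amidates peptides such as *Iapp*, 2.98, 2.64, 2.87 and 2.06 times. In hormone-rich spots *Cpe* rested on 65, 7, 51 and 8 UMIs and *Pam* on 59, 4, 26 and 6. *Pcsk2*, the convertase that frees glucagon, was 106 times higher in +/+ 1 but 4.79, 8.48 and 0.629 times in the others, where 3, 34 and 1 UMIs lay in hormone-rich spots. Of the other granins, *Scg2* was 128, 7.84, 20.7 and 7.57 times and *Scg3* 133, 8.09, 16.0 and 5.78 times higher, while *Vgf* had 0 or 1 UMI in hormone-rich spots of each section. In +/+ 2, *Scg2* and *Scg3* rested on 6 and 8 UMIs in hormone-rich spots. None of *Scg2*, *Scg3* and *Vgf* was called.

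Of 14 islet transcription factors, 12, 8, 6 and 7 lay above the 95th percentile of the olfactory receptor genes, and 0 were called. *Nkx2-2* was 11.1, 5.17, 6.40 and 6.06 times higher in hormone-rich spots, and *Pdx1*, the beta cell factor whose promoter drives the Cre, 3.31, 2.99, 2.06 and 2.20 times. *Mafa*, which activates insulin genes in beta cells, was 128, 21.6, 8.93 and 1.62 times higher. It had 352, 316, 226 and 39.8 CPM in hormone-rich spots. The value in fl/fl 2 was the same CPM as that of *Pyy*, which rested on 4 UMIs there. In other spots *Mafa* had 2.74, 14.6, 25.3 and 24.5 CPM, lowest in +/+ 1 as the olfactory receptor background was. Of the 11 genes of glucose sensing and secretion, 10 were tested and 0 called. Their most abundant genes were *Rab3d*, *Ero1b* (listed as *Ero1lb*) and *Kcnj11*, of which *Ero1b*, an oxidase of insulin folding that acinar cells share, was 3.12, 3.25, 3.24 and 1.24 times higher. *Ucn3*, a marker of mature beta cells, was 116, 16.1, 7.23 and 5.39 times higher. The part of background in the ratios of *Mafa*, *Ucn3*, *Scg2* and *Scg3* was not tested. Of 15 receptors of the hormones, 0 were called. *Ramp1*, *Ramp3* and *Insr* had the most UMIs, and the list's summed level was 1.53, 1.21, 0.972 and 0.932 times as high in hormone-rich as in other spots. Over these 5 lists together, edgeR called 0 of 47 genes, 5 had an unadjusted p under 0.05, and DESeq2 called 2, *Rab3d* and *Ramp1*. Over all 20066 genes tested these counts were 19, 1005 and 401.

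**Figure D5:**
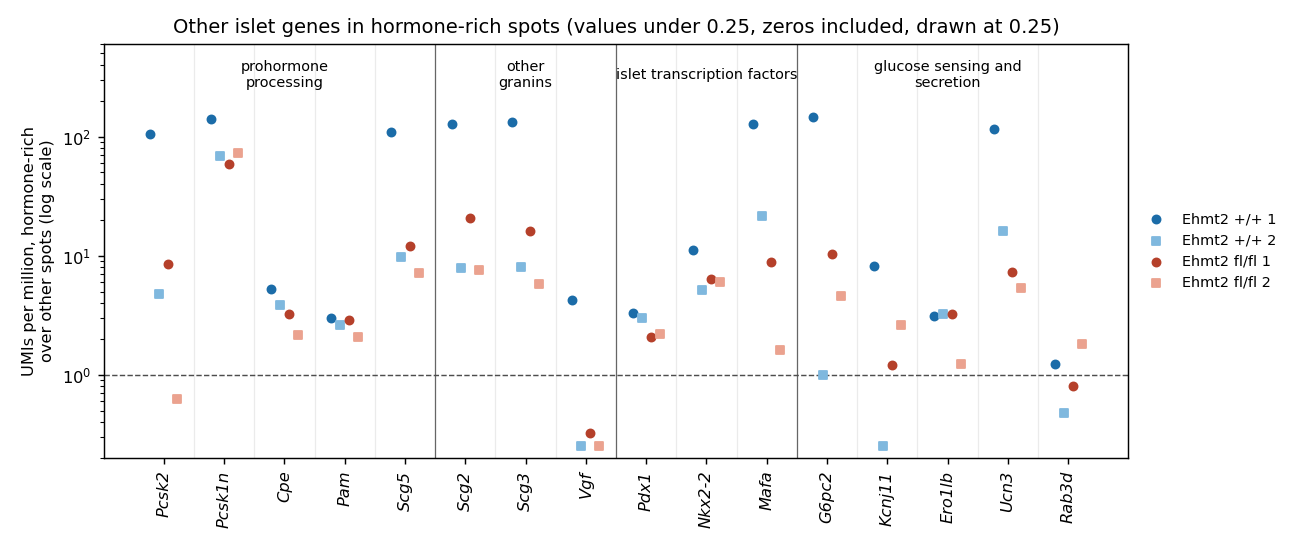
Ratio of CPM in hormone-rich over other spots (log axis) for the genes of prohormone processing, other granins, islet transcription factors and glucose sensing that the text names, coloured by section, with values under 0.25 drawn at 0.25. *Pcsk1n* lies between 58.7 and 140 in all 4 sections, while *Scg2* and *Scg3* lie at 128 and 133 in +/+ 1 and between 5.78 and 20.7 in the rest.

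Genes were ranked by how closely their level over spots followed that of the members. Correlations are of ln(1 + UMIs per 10000) over the spots of each section, given as means over 4 sections and as description only, since the spots share a library and depth. Among 10051 genes, *Chga* (0.599) and *Iapp* (0.565) had the highest mean r with *Ins1* plus *Ins2*, and *Gcg* (0.443) stood at rank 4. Outside the members, the 10 leading genes were *Pcsk1n* (0.512), *Resp18* (0.324), *Syt13* (0.316), *Ttr* (0.252), *Scg2* (0.228), *Mafa* (0.219), *Scg3* (0.197), *Ptprn* (0.179), *Scg5* (0.173) and *G6pc2* (0.170). With *Gcg* the same 10 led, *Pcsk1n* at 0.448 and *Resp18* at 0.349 among them, so the leading genes outside the members did not differ between the hormones. All were higher in +/+ 1, where *Pcsk1n* reached 0.684 with the insulin genes, than elsewhere, at 0.403 to 0.537. The median gene had an r of -0.00436 to 0.0114 with the insulin genes. *Ptprn* and *Resp18* encode granule proteins, *Syt13* a synaptotagmin, and *Ttr* transthyretin.

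Hormone-rich spots also held digestive enzyme UMIs. Their digestive enzyme CPM were 514513, 406665, 186190 and 152710, or 0.819, 0.768, 0.837 and 0.717 times those of other spots, and the part of this in the makeup of the hormones was not tested. The enzyme list had 34 of 35 genes among those listed, of which *Cpb1*, *Pnliprp1*, *Amy2a2*, *Amy2a3* and *Amy2a4* were at 0 in every section. Whether these genes have probes is not given in the sources used here, so 0 is not read as absence of their RNA. Duct markers were 1.40 to 1.85 times as high in hormone-rich as in other spots. Macrophage markers, with 6 of 6 detected, summed to 55.8 and 101 CPM over tissue in the sections labelled +/+ and 568 and 426 in those labelled fl/fl, and their part in the members' values was not tested. Vessel markers (5 genes) summed to 92.5, 160, 472 and 381. Lymphoid markers summed to 4.27, 76.7, 197 and 252 over 7 genes, and nerve markers to 9.36, 68.5, 113 and 136 over 10 genes. Gut and enteroendocrine markers summed to 6.55, 101, 175 and 234 over 12 genes. The lymphoid, nerve and gut sums all followed the order of the olfactory receptor background. edgeR called 0 of 29 enzyme genes, with 13 at an unadjusted p under 0.05, while DESeq2 called 24. Of the 46 genes tested in the other marker lists edgeR called 0, with 3 at an unadjusted p under 0.05, and DESeq2 called 1, *Krt19*, a duct keratin. Over all 20066 genes tested, edgeR called 19, with 1005 at an unadjusted p under 0.05, and DESeq2 called 401.

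All sections drew on a common set of barcodes, with 13898 to 14336 barcodes shared between pairs of sections. At shared barcodes the insulin UMIs of different sections had an r of -0.0152 to 0.117. The highest was between +/+ 1 and fl/fl 1 on slide 1, and the lowest between +/+ 2 and fl/fl 2 on slide 2.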

How the data were processed

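Spatial libraries were made by the authors from formalin-fixed, paraffin-embedded sections with the CytAssist Visium workflow and mouse probes. Space Ranger 2.0.1 on mm10 gave the deposited matrices, which per the file headers and labels hold raw counts of UMIs for every gene and listed spot, on and off tissue. Feature names, barcodes and slide alignment files were deposited beside them. Alignment marks carry no barcodes, so spots were not placed on the tissue and islets were not counted. Of 32589 features, 304 with deprecated probes were left out. Tissue spots lay above the lowest point between the 2 highest modes of the histogram of log10(UMIs + 1), in steps of 0.05, smoothed by a Gaussian kernel (SD 3 steps).

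Section sums over tissue spots entered the quasi-likelihood test of edgeR 4.0.16 (R 4.3.3), with genotype as the only factor and TMM scaling, after filterByExpr at a minimum of 10. P-values were Benjamini-Hochberg adjusted over all genes tested, with 0.05 as the threshold. The pipeline was tested on simulated data. DESeq2 1.42.0 and other settings were alternatives, and slide as a block, values within slides, composition of hormone UMIs and the limit of 5% for ratios were added after seeing the data. Other values used two-sided exact permutation tests in Python with scipy 1.17.1. Depth ranged from 7000825 to 43803829 UMIs over tissue. Sections were grouped by label. Their titles carry different numbers, but nothing states that each came from its own mouse, so p-values measure only the spread between sections. A count of 0 allows up to 3 counts, or 0.0685, 0.345, 0.429 and 0.353 CPM. Expected shares at 500 UMIs are hypergeometric. Named genes were all members, *Ehmt2*, the 3 most abundant and any called gene of each list of other islet genes, the 10 genes most correlated with *Ins1* plus *Ins2* and with *Gcg*, and sex-linked genes; some are not reported here. Other genes of the lists named above (*Pcsk2*, *Mafa*, *Ucn3* and the genes at 0) were chosen after their values were seen. The members and lists were chosen with earlier results of these data known.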

Additional observations from a re-analysis of the deposited data

How the results depend on the processing

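With 2 sections per genotype, no permutation test could fall below 0.333, and the count of called genes depended on scaling and on single sections. Against 19 genes, plain library sizes called 195, DESeq2 401, slide as a block 10 and an adjusted p under 0.1 with at least a 2-fold change 30, and with a section left out the count ran from 0 (edgeR without fl/fl 2, with 17 genes at an unadjusted p under 0.05) to 16701 (without +/+ 2). Members called were 0, with DESeq2 1, and with a section left out 0 to 6. Plain library sizes turned the log2 fold changes of *Gcg* (0.0717), *Ppy* (0.886), *Iapp* (0.507), *Pyy* (0.925), *Chga* (0.900) and *Chgb* (1.96). DESeq2 turned *Ins1* (-0.0616) and *Ins2* (-0.372), slide as a block *Ins2* (-0.345) and *Chgb* (0.0202), and spots with at least 500 UMIs *Chgb* (0.00667). With a section left out they ranged from -2.06 to 2.03 for *Ins1*, -2.45 to 1.60 for *Ins2*, -3.33 to 0.180 for *Iapp*, -2.46 to 0.208 for *Chga* and -0.914 to 0.999 for *Chgb*. The difference in hormone-rich spots ranged from -0.441 to 3.97 percentage points. The cause of these changes was not tested.

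Relative to *Ins2*, the 3 members whose genotypes did not overlap became 7 in hormone-rich spots and 6 in spots with at least 5% hormone UMIs. Of all genes, 1.21% were lower and 0.199% higher in both sections labelled fl/fl over tissue, and 11.8% and 2.30% in hormone-rich spots. No such share was computed for the limit of 5%. Both kinds of spots were chosen by UMIs of the hormone genes, and the part of that choice in these counts was not tested. *Ins1*, *Iapp*, *Gcg*, *Sst* and *Chga* kept their sign under every setting run. For *Chga*, however, the log2 difference was only -0.0426 without fl/fl 1 and -0.0890 within slide 2. The values of *Sst* and *Chga* over tissue overlapped. With a section left out the log2 difference ranged from -1.94 to 1.69 for *Ppy*, -2.13 to 1.07 for *Pyy* and -0.642 to 1.38 for *Chgb*. Within slide 2 it was 0.236 for *Ppy* and 0.571 for *Pyy*, and within slide 1 -0.370 for *Chgb*. Of the shares of hormone UMIs, those of *Ppy* (0.0900) and *Pyy* (0.182) turned over tissue spots, and the others kept their sign. For *Ppy*, no ratio could be had in spots with at least 5% hormone UMIs.

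For shares of spots, 1 member did not overlap and 3 did not at 500 UMIs per spot, where 90.2% of all genes were higher in both sections labelled fl/fl. The difference, in percentage points, turned at 500 UMIs for *Gcg* (0.153), *Iapp* (0.578), *Pyy* (0.539) and *Chga* (1.85), and with at least 2 UMIs for *Ins2* (-0.342), *Ppy* (-0.0624) and *Chgb* (-0.00615). With a section left out it ranged from -3.68 to 8.28 for *Ins1*, -7.14 to 8.13 for *Ins2*, -6.86 to 1.64 for *Gcg*, -6.34 to 2.01 for *Iapp*, -1.64 to 1.22 for *Pyy*, -4.56 to 3.16 for *Chga* and -0.0192 to 2.11 for *Chgb*. The 29 pairs above expectation in every section were 30 at 500 UMIs and 29 in spots with at least 1000 UMIs. With at least 2 UMIs of each they were 20, and the other pairs had no spot with both in at least 1 section. Wherever both were found at that limit, the ratio was above 1. The labels give no replicate numbers to pair sections by, and the slide, which held 1 section of each genotype, was used as a block instead, with 0 members called. Outside +/+ 1, *Ppy* lay near background and *Pyy* only little above it. *Chgb* in +/+ 2 and fl/fl 2 and *Sst* in fl/fl 2 also lay only little above it, which limits the reading of these members there.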
